A study of Mus musculus with 8 samples.

Results

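Output and accessory genes of the circadian clock, 9 in all, were examined in hearts of mice deficient in the histone deacetylase HDAC3. They were the PAR bZIP transcription factor genes Dbp, Tef and Hlf, their competitor Nfil3, the basic helix-loop-helix repressor genes Bhlhe40 and Bhlhe41, the nuclear receptor gene Rora and the casein kinase genes Csnk1d and Csnk1e. They were listed by name and found by gene symbol, and all 9 were among the 19933 genes with a transcript cluster (a gene-level probe set) of their own. Each had 1 such cluster, and all 9 passed the filter on dim genes, which left 14950 genes tested. Total RNA came from whole hearts of 4 HDAC3-deficient mice (KO) and 4 wild type mice (WT), 1 Affymetrix Mouse Gene 1.0 ST array per mouse. Both groups were male C57BL/6 mice aged 6 weeks, fed normal chow under a daily light and dark cycle, and hearts were frozen at collection. The series' design text calls the deficient mice MCH3-KO without expanding the name. The promoter or cell type in which Hdac3 was deleted, and the time of day at which hearts were collected, are not named in the labels or the design text.

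The molecular clock is a feedback loop in which the activators CLOCK and BMAL1 (gene Arntl) switch on their own repressors, the PER and CRY proteins, once a day. The loop also drives output factors. DBP, TEF and HLF activate genes through a DNA element called the D-box, and NFIL3 (also called E4BP4) occupies the same element as a repressor, so the balance between them sets D-box activity. BHLHE40 and BHLHE41 (DEC1 and DEC2) repress at E-boxes, the elements that CLOCK and BMAL1 use. RORA activates, and the REV-ERB receptors (genes Nr1d1 and Nr1d2) repress, through a shared element, and REV-ERB represses by recruiting the NCoR corepressor with HDAC3. In mouse liver Arntl and Nfil3 are known REV-ERB targets. CK1 delta and epsilon, the products of Csnk1d and Csnk1e, phosphorylate PER proteins and set the period of the clock. Transcripts of Dbp, Tef and Hlf vary over the day in many tissues, the heart among them.

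The promoter sequences are shown for the output factors on which the results turn, because these genes did not all move the same way. RefSeq promoter windows of assembly GRCm38.p6 were matched for 7 of the 9 genes with 11 start sites, and Bhlhe40 and Csnk1d were not matched. The 250 bases before each start were searched on both strands. The letters sought were the E-box CACGTG, the variant E-box CACGTT and a loose D-box pattern TTANNTAA, in which N is any base. The ROR and REV-ERB core element AGGTCA and the cyclic AMP element TGACGTCA were also sought. No match overlapped another. Capitals mark matches. Only bases outside the gene's annotated span are printed, or 30 bases around a match inside it, 5′ to 3′ on the strand of the gene.
Tef, first start, chr15:81802423-81802672, plus strand: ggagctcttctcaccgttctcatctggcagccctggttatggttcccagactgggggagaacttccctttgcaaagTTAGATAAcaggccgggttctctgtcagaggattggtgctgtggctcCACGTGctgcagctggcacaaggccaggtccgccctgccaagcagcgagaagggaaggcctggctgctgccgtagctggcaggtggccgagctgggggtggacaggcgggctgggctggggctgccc
Tef, second start, chr15:81811264-81811293, plus strand: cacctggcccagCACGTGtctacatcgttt
Bhlhe41, chr6:145865421-145865670, minus strand: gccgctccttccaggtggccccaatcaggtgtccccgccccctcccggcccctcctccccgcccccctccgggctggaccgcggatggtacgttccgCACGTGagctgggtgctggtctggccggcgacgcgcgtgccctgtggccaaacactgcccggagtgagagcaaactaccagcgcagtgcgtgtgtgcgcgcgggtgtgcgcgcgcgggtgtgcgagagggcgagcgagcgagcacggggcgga
Hlf, chr11:90390918-90391167, minus strand: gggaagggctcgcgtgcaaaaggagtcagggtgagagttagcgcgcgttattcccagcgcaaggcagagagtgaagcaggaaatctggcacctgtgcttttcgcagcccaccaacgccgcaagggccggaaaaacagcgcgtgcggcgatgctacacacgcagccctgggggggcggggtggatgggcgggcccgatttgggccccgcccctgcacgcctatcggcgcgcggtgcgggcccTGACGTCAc
Dbp, chr7:45704997-45705099, plus strand: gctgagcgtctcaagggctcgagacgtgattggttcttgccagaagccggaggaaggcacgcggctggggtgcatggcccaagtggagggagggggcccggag
Nfil3, chr13:52981040-52981069, minus strand: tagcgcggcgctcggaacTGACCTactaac

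The Tef windows each held an E-box, 127 and 138 bases before the start, and the Bhlhe41 window held one 153 bases before it. An E-box of these letters was present in 6.02% of 32851 promoter windows. The first Tef window also held a match to the loose D-box pattern, printed as TTAGATAA, and 5.43% of all windows held a match. The middle bases of that pattern were left free, so a match need not be a D-box. The Nfil3 window held the ROR and REV-ERB core element on its opposite strand (printed as TGACCT), 12 bases before the start, as did 14% of all windows, and the Hlf window held the cyclic AMP element, as did 1.55%. The windows of Dbp, Rora and Csnk1e held none of these letters. These matches describe letters in a short window and not binding.

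The targeted gene matched the labels in every array: Hdac3 was 8.50 to 8.59 in KO and 10.04 to 10.20 in WT hearts on the log2 intensity scale, an adjusted p of 9.19e-08 in limma. Of 10 cardiomyocyte markers, 9 lay above the 99th percentile of gene levels. Of 18 tested macrophage and neutrophil markers, 16 rose and 0 fell, and their summed intensity was 8296 to 10516 in KO against 3739 to 4238 in WT hearts. Of 10 cardiomyocyte markers 0 rose and 4 fell, with summed intensities of 66292 to 67288 in KO and 70155 to 71353 in WT hearts. Of 10 fibroblast markers 3 rose and 0 fell, of 10 endothelial markers 1 rose and 0 fell, and of 5 tested lymphocyte markers 1 rose and 0 fell. Over all genes tested 10.8% rose and 13.9% fell, so the count of endothelial markers higher is near the share over all genes. In whole hearts, fewer cells of a type and less RNA per cell cannot be told apart. The count of cardiomyocyte markers lower was 1 without KO replicate 1, KO replicate 2 or WT replicate 1, and at an adjusted p under 0.01. It was 2 without KO replicate 3, WT replicate 2 or WT replicate 4, and with replicate number as a block. With trended robust variances 7 were lower and 1 was higher. With all hearts Myl3 was higher by 0.08 and did not pass (adjusted p = 0.179 in limma). The fibroblast count was 5 without WT replicate 2 or KO replicate 4. The endothelial count was 0 without KO replicate 1, 2 or 3 or WT replicate 1, and without WT replicate 2 it was 1, a gene other than Flt1. Of the tested macrophage and neutrophil list, the neutrophil markers S100a9 (0.11, adjusted p = 0.340 in limma) and Csf3r (0.07, adjusted p = 0.570) did not pass. Median intensities of the arrays were 54.1 to 56.5.

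WT replicate 2 stood apart from the other WT hearts in several clock genes, and the results for the output and core loop genes are therefore given with and without it. The heart was picked after these values were seen. Where it lay nearest the KO hearts, as for Arntl, Clock and Hlf, leaving it out widens the difference by construction and adds no support. In that heart Arntl was 6.16, against 5.46, 5.24 and 5.27 in the other WT hearts, and Per2 was 7.20, against 7.84, 8.23 and 8.23. Ciart, a repressor of CLOCK and BMAL1, was 7.67 there and 8.55 to 8.89 in the other WT hearts. Tef and Hlf were also lowest in this heart among WT hearts. Dixon's rule for an extreme value among 4 hearts, used below, flagged no value of WT replicate 2 in the output and core loop genes. Genes outside the clock lists differed there too. Egr1 was 7.73 in WT replicate 2 and 6.23 to 6.33 in the other WT hearts, and Cdh5 was 11.27 against 10.86 to 10.95.

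**Figure D1:**
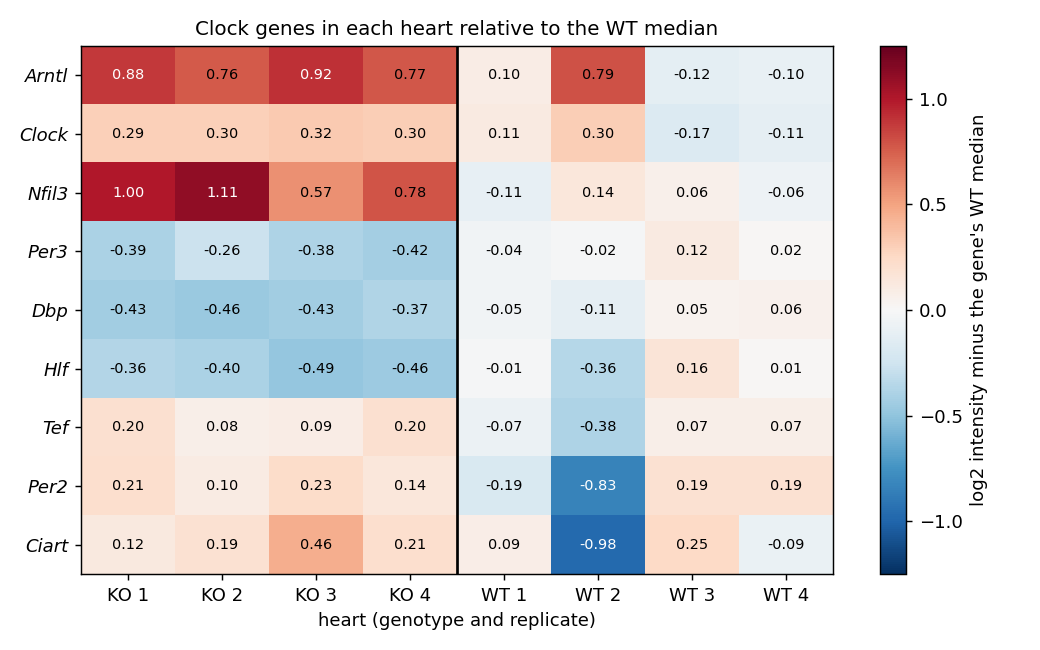
Log2 intensity of 9 clock genes in each of the 4 KO and 4 WT hearts, minus the gene's median over WT hearts (colour and printed value). WT replicate 2 lies at 0.79 for Arntl, -0.83 for Per2 and -0.98 for Ciart, apart from the other WT hearts, while Nfil3, Per3 and Dbp separate KO from WT hearts.

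Nfil3 rose, Dbp and Hlf fell, and Tef did not pass the test, so D-box repressor transcript was higher and that of 2 of the 3 D-box activators was lower in KO hearts. Of the 9 genes, 6 passed an adjusted p under 0.05 (limma, Benjamini-Hochberg over all 14950 genes), where 24.6% of all genes tested did. Higher in KO were 2 of 9, against 10.8% of all genes, and lower were 4 of 9, against 13.9%. Without WT replicate 2 the counts were 1 higher and 4 lower, since Csnk1e no longer passed. In 7 of the 9 genes the KO hearts were all on one side of the WT hearts, 3 above and 4 below, where this was so for 28.6% of all genes. In 3 of these 7 the nearest KO and WT hearts were almost level: Hlf (7.828 and 7.832), Tef (8.434 and 8.429) and Csnk1e (9.228 and 9.227). The median difference of the 9 genes was 0.11, beside -0.0062 for all genes tested. The 9 genes were chosen with earlier results of these data known, so these counts are a description of them and not a test.

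**Figure D2:**
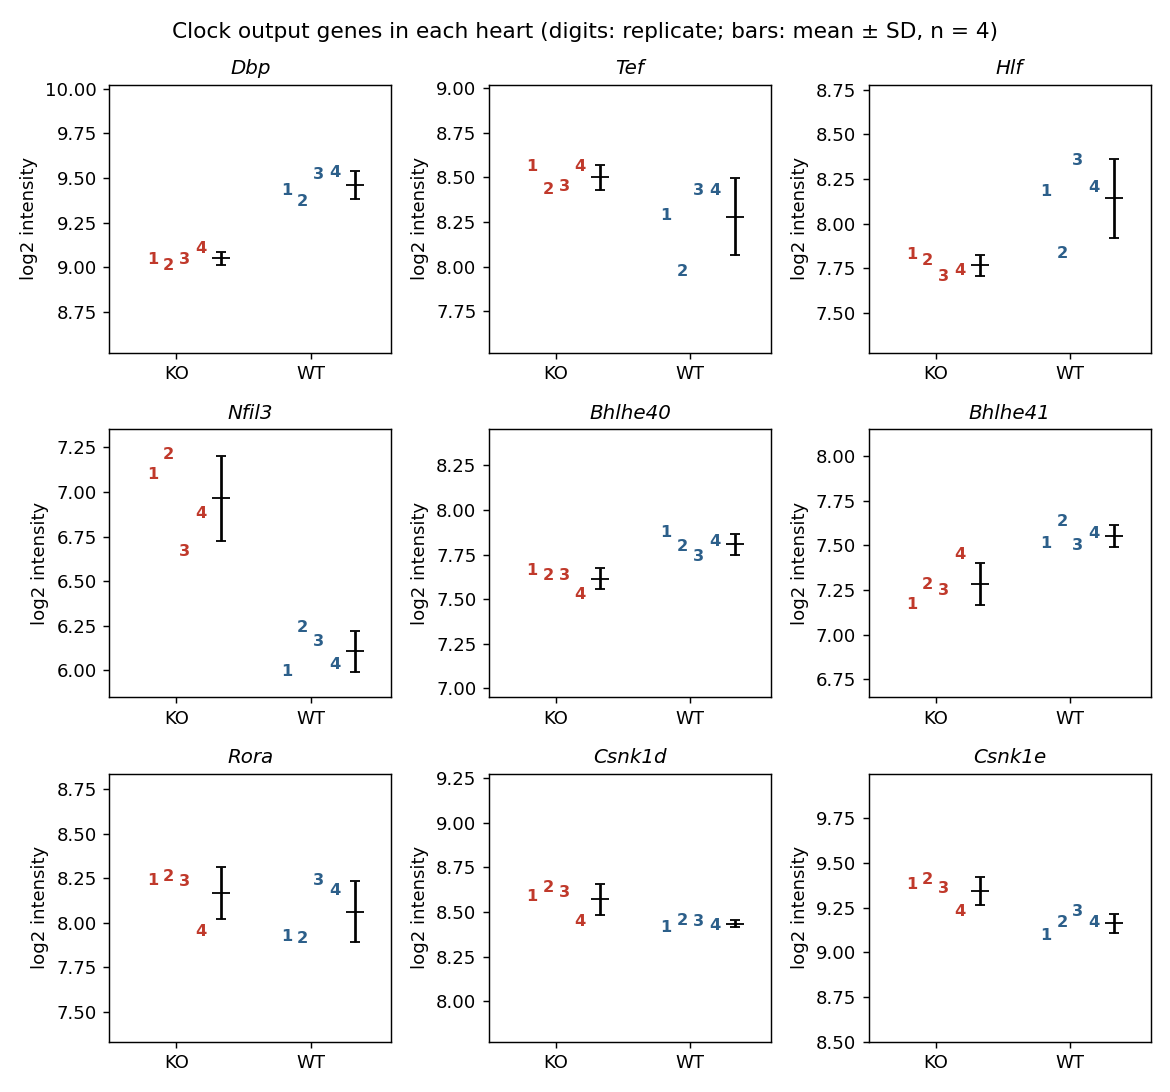
Log2 intensity of the 9 genes in each KO and WT heart, with digits giving the replicate number and bars the mean ± SD (n = 4 each). Every panel spans the same range of 1.5 log2 units. Nfil3 lies at 6.67 to 7.21 in KO and 5.99 to 6.24 in WT hearts, and Dbp at 9.01 to 9.10 and 9.37 to 9.53.

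Nfil3, which encodes the D-box repressor, had log2 intensities of 7.10, 7.21, 6.67 and 6.88 in KO replicates 1 to 4, against 5.99, 6.24, 6.16 and 6.03 in WT replicates 1 to 4. Every KO heart was above every WT heart, and the KO hearts spread more widely. The means were 6.96 ± 0.24 in KO and 6.11 ± 0.11 in WT hearts (SD, n = 4 each), a rise of 0.86 (SE 0.11, 95% interval 0.61 to 1.10, adjusted p = 0.000313 in limma), or 1.81-fold. Without WT replicate 2 it was 0.90 (adjusted p = 0.000663). The rise stood at the 98.8th percentile of differences over all genes tested. NFIL3 is also a regulator of immune cells, and macrophage markers were higher in the same hearts. The mean over all 20 listed macrophage and neutrophil markers, relative to WT on the log2 scale, was 0.97, 0.97, 0.95 and 0.78 in KO replicates 1 to 4. The part of macrophages in the Nfil3 rise was not tested.

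Dbp, whose product is a D-box activator that cycles with high amplitude in liver, was 9.04, 9.01, 9.04 and 9.10 in KO hearts, against 9.43, 9.37, 9.52 and 9.53 in WT hearts. The groups did not overlap, and the KO hearts lay within a narrow band. Means were 9.05 ± 0.04 in KO and 9.46 ± 0.08 in WT hearts (SD, n = 4 each), and Dbp fell, with a log2 difference of -0.41 (SE 0.05, 95% interval -0.53 to -0.29, adjusted p = 0.000322 in limma), to 75.2% of the WT level. The difference was -0.44 without WT replicate 2 (adjusted p = 0.000324, range 3.94e-05 to 0.00194 over 18 alternatives).

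Hlf, named for its fusion in a human leukaemia, was 7.83, 7.80, 7.70 and 7.73 in KO hearts, against 8.18, 7.83, 8.35 and 8.20 in WT hearts. The highest KO heart and WT replicate 2 lay side by side, and the other WT hearts were clearly higher. Hlf was lower in KO hearts by a log2 difference of -0.38 (SE 0.10, adjusted p = 0.0168 in limma), to 77.1% of the WT level. Without WT replicate 2 the difference was -0.48 (SE 0.06, adjusted p = 0.000542, range 0.000542 to 0.0465 over 18 alternatives).

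Tef, the third PAR bZIP gene, was 8.56, 8.43, 8.45 and 8.56 in KO hearts, against 8.29, 7.97, 8.43 and 8.43 in WT hearts. Here KO hearts were on the upper side, although the lowest KO heart was level with WT replicates 3 and 4. The difference of 0.22 (SE 0.10, 95% interval 0.0080 to 0.44) did not pass (adjusted p = 0.126 in limma). It was 0.12 without WT replicate 2 (adjusted p = 0.202 and range 0.0857 to 0.251 over 18 alternatives).

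Whether these genes changed unequally was examined within hearts, as the log2 value of one gene minus that of another in the same array. Dbp minus Tef was 0.48, 0.58, 0.59 and 0.54 in KO hearts, against 1.14, 1.39, 1.09 and 1.10 in WT hearts. The groups were far apart, and the change of Dbp was 0.63 below that of Tef (exact two-sided permutation test, p = 0.0286, n = 4 each). Hlf minus Tef was -0.83 to -0.64 in KO and -0.23 to -0.08 in WT hearts, so the change of Hlf was 0.60 below that of Tef (exact p = 0.0286). Dbp and Hlf changed by amounts that differed by -0.04 (exact p = 0.8).

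Nfil3 minus Dbp was -1.95, -1.80, -2.37 and -2.22 in KO hearts, against -3.44, -3.13, -3.36 and -3.50 in WT hearts. The change of Nfil3 was 1.27 above that of Dbp and 1.23 above that of Hlf (exact permutation p = 0.0286 for each). Against Tef it was 0.64 above (exact p = 0.0571), with WT replicate 2 at -1.74 within the KO range of -1.78 to -1.23. Without that heart, which was picked after the values were seen, the difference was 0.78 (exact p = 0.0286). With 4 hearts against 4 there are 70 divisions, and 0.0286 is the smallest p they can give. Over the 8 pairs compared, the Benjamini-Hochberg adjusted p was 0.0571 for each of the 4 pairs at that limit, so none passed the correction. In each of these 4 pairs the single genes already separated KO from WT hearts, in opposite directions. The separation of the pair and its exact p of 0.0286 were therefore fixed in advance and add no support. The pairs were chosen after the values of the single genes were known.

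**Figure D3:**
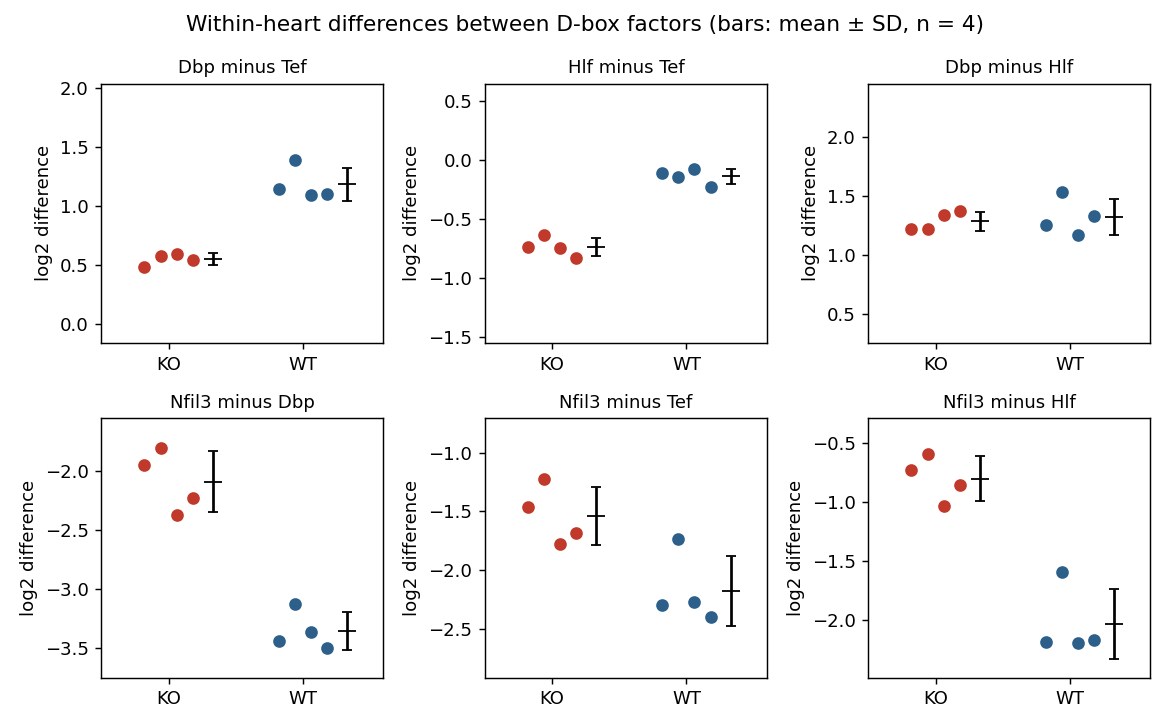
Differences between D-box factor genes within each heart (log2 value of the first gene minus that of the second), for 4 KO and 4 WT hearts, with mean ± SD (n = 4 each). Every panel spans 2.2 log2 units. Dbp minus Tef, Hlf minus Tef, Nfil3 minus Dbp and Nfil3 minus Hlf do not overlap between KO and WT hearts, while Dbp minus Hlf does.

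Both E-box repressor genes were slightly lower in KO hearts. Bhlhe41 (DEC2) was 7.17, 7.28, 7.25 and 7.45 in KO hearts, against 7.51, 7.63, 7.50 and 7.57 in WT hearts. All KO hearts were below all WT hearts, with KO replicate 4 close to the WT range. Bhlhe41 fell, with a log2 difference of -0.27 (SE 0.07, adjusted p = 0.0138 in limma), to 83.1% of the WT level. The difference was -0.24 without WT replicate 2 (adjusted p = 0.0339).

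Bhlhe40 (DEC1), which also responds to hypoxia and other stimuli, was 7.66, 7.63, 7.63 and 7.53 in KO hearts, against 7.87, 7.79, 7.74 and 7.82 in WT hearts. The groups did not overlap. Bhlhe40 fell, with a log2 difference of -0.19 (SE 0.05, adjusted p = 0.0210 in limma), to 87.5% of the WT level, and the difference was -0.20 without WT replicate 2 (adjusted p = 0.0332). Bhlhe40 missed the threshold without WT replicate 1 (-0.17, adjusted p = 0.0609) and without WT replicate 4 (-0.19, adjusted p = 0.0508). Over 18 alternatives its adjusted p lay between 0.0110 and 0.0609. The changes of Bhlhe41 and Bhlhe40 differed by -0.07 (exact permutation p = 0.486, n = 4 each).

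Rora, the receptor gene that acts opposite to REV-ERB, was 8.24, 8.26, 8.23 and 7.95 in KO hearts, against 7.92, 7.91, 8.24 and 8.18 in WT hearts. The groups overlapped, with KO replicate 4 and WT replicates 1 and 2 on the low side. The difference of 0.11 (SE 0.10, 95% interval -0.11 to 0.32) did not pass (adjusted p = 0.486 in limma). Leaving out WT replicate 2 gave 0.055 (adjusted p = 0.749), and leaving out KO replicate 4 gave 0.18, that being the heart that lay below the other KO hearts. Rora passed in no setting, with adjusted p from 0.187 to 0.749 over 18 alternatives.

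Of the casein kinase genes, Csnk1e was 9.38, 9.41, 9.36 and 9.23 in KO hearts, against 9.09, 9.17, 9.23 and 9.16 in WT hearts. KO replicate 4 was level with WT replicate 3. Csnk1e rose by 0.18 (SE 0.06, adjusted p = 0.0382 in limma), or 1.13-fold. This call was lost in 10 of 18 alternatives, among them leaving out any heart but KO replicate 4 or WT replicate 3, with adjusted p from 0.00853 to 0.107 over all 18 and 0.0612 without WT replicate 2.

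Csnk1d was 8.59, 8.64, 8.61 and 8.45 in KO hearts, against 8.41, 8.45, 8.44 and 8.42 in WT hearts. KO replicate 4 lay within the WT range and the other KO hearts were above it. The difference of 0.14 (SE 0.05) did not pass (adjusted p = 0.0885 in limma), and was 0.14 without WT replicate 2 (adjusted p = 0.110), but passed without KO replicate 4 (0.18, adjusted p = 0.0170, range 0.0170 to 0.214 over 18 alternatives). The changes of Csnk1e and Csnk1d differed by 0.04 (exact permutation p = 0.143, n = 4 each), so a difference between the kinases was not shown. Of 14 other tested genes of kinases, phosphatases and ubiquitin ligase adaptors that act on clock proteins, 0 rose and 0 fell in limma, and 1 had an unadjusted p under 0.05. Over all genes tested, 10.8% rose and 13.9% fell. Fbxw11, an adaptor for PER degradation, was nearest (0.14, adjusted p = 0.0627), followed by the casein kinase 2 gene Csnk2a2 (0.10, adjusted p = 0.160). The count of 0 higher depended on the setting: it was 1 in 7 of 18 alternatives, among them without KO replicate 4 and without WT replicate 1, and Fbxw11 passed in 6 (adjusted p from 0.0172 to 0.166 over 18).

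The core clock loop was set beside its output genes. Of 10 genes tested, 1 rose and 1 fell, with a median difference of 0.14, and this share is near the 24.6% called over all genes tested. Arntl, the gene of BMAL1, was 6.25, 6.13, 6.28 and 6.14 in KO hearts, against 5.46, 6.16, 5.24 and 5.27 in WT hearts. WT replicate 2 lay within the KO range and the other WT hearts were all lower. Arntl rose by 0.67 (SE 0.17, adjusted p = 0.0173 in limma), and by 0.87 without WT replicate 2 (SE 0.07, adjusted p = 4.07e-05, range 4.07e-05 to 0.0470 over 17 alternatives). WT replicate 2 was singled out partly by its Arntl value. The larger rise and lower p without it follow from that choice and add no support.

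Clock was 8.70, 8.70, 8.73 and 8.71 in KO hearts, against 8.51, 8.71, 8.23 and 8.29 in WT hearts. It showed the same layout as Arntl, with WT replicate 2 at the KO level. The difference of 0.27 (adjusted p = 0.0582) became 0.36 without WT replicate 2 and then passed (adjusted p = 0.00512, range 0.00512 to 0.139 over 18 alternatives), which made 2 core genes higher. That heart was picked after the clock gene values were seen, so this pass adds no support.

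Per3, a period gene, was 7.72, 7.84, 7.73 and 7.69 in KO hearts, against 8.06, 8.09, 8.22 and 8.13 in WT hearts. The groups did not overlap, and WT replicate 2 lay with the other WT hearts. Per3 fell, with a log2 difference of -0.38 (SE 0.06, adjusted p = 0.000736 in limma), or -0.39 without WT replicate 2 (adjusted p = 0.00163). The other period and cryptochrome genes did not pass: Per1 differed by 0.14 (adjusted p = 0.252), Per2 by 0.33 (adjusted p = 0.254), Cry1 by 0.14 (adjusted p = 0.134) and Cry2 by -0.07 (adjusted p = 0.613). Leaving out WT replicate 2 gave 0.07 for Per1 (adjusted p = 0.514), 0.11 for Per2 (0.483), 0.11 for Cry1 (0.256) and -0.14 for Cry2 (0.244). Ciart differed by 0.43 (adjusted p = 0.200), and by 0.16 without that heart (adjusted p = 0.286). The REV-ERB genes Nr1d1 (-0.10, adjusted p = 0.471) and Nr1d2 (-0.03, adjusted p = 0.746) did not pass either, and were -0.02 and -0.06 without that heart (adjusted p = 0.873 and 0.557).

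**Figure D4:**
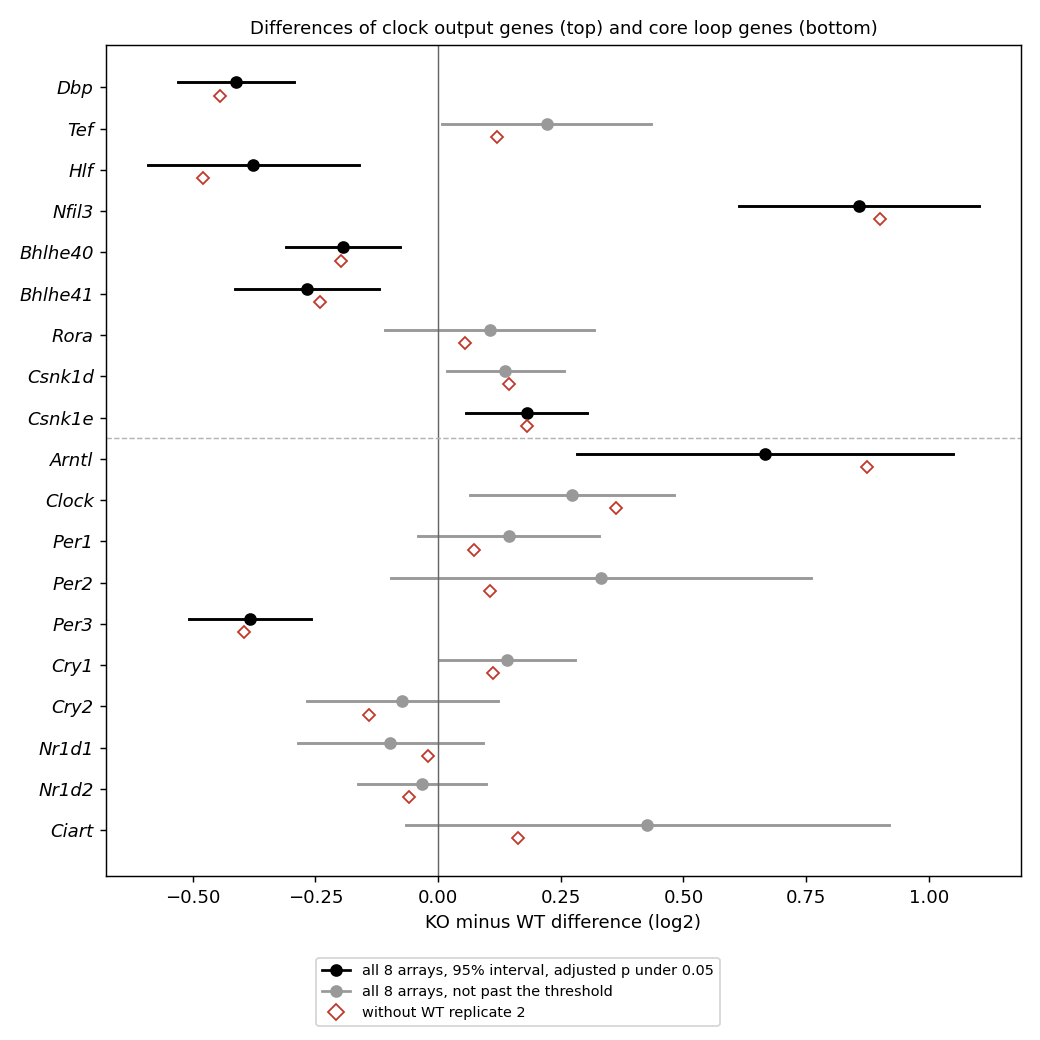
KO minus WT differences on the log2 scale with 95% intervals for the 9 output genes (above the dashed line) and 10 core loop genes (below it), black where the adjusted p was under 0.05, and the difference without WT replicate 2 as red diamonds. Nfil3 and Arntl lie at 0.86 and 0.67, Dbp and Per3 at -0.41 and -0.38, and the diamonds shift most for Per2, Ciart and Arntl.

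Of 11 listed genes described in mice as regulated by PAR bZIP factors, 7 were tested, 1 rose and 2 fell, with a median of 0.03. Over all genes tested 10.8% rose and 13.9% fell, and nothing particular to these targets is read from the counts. Alas1, the first enzyme of heme synthesis, rose by 0.32 (SE 0.05, adjusted p = 0.00164 in limma). The acyl-CoA thioesterase genes Acot2 and Acot1 fell by 0.63 and 0.46 on the log2 scale (adjusted p = 5.65e-05 and 0.00898). Acot1 and Acot2 are close relatives, and shared hybridisation was not tested.

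Of 15 tested output genes that cycle in many mouse tissues, 6 rose and 1 fell, with a median of 0.32, where 10.8% of all genes rose and 13.9% fell. The count higher was 3 without KO replicate 2 or WT replicate 1, and 2 at an adjusted p under 0.01. The transferrin receptor gene Tfrc was 9.26, 9.28, 9.35 and 9.16 in KO hearts, against 8.53, 8.82, 8.03 and 8.19 in WT hearts, and rose by 0.87 (SE 0.15, adjusted p = 0.00168 in limma), or by 1.01 without WT replicate 2 (adjusted p = 0.000202). The tetraspanin gene Tspan4 rose by 0.40 and Lonrf3 by 0.32, while Cirbp, an RNA-binding protein gene that follows body temperature, fell by 0.41 on the log2 scale. Of 15 immediate early genes, which respond to stimulation and handling, 5 rose and 0 fell, among them Ier3 (0.63), Btg2 (0.55), Egr2 (0.45) and Zfp36 (0.38). The immediate early count was 8 higher without WT replicate 2.

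Relatives of the output factors were compared with them, where 10.8% of all genes tested rose and 13.9% fell. Of 10 tested genes of C/EBP and other bZIP factors, 6 rose and 0 fell, with a median of 0.31: Maf rose by 0.91, Cebpa by 0.53, Atf5 by 0.50 and Cebpd by 0.46. Maf, Cebpa and Cebpd are also expressed in macrophages, whose markers rose in the same hearts, and that part was not tested. Of 9 tested genes of the Hes, Hey and Id families, relatives of Bhlhe40 and Bhlhe41, 0 rose and 1 fell, and this was Hey2 (-0.37, adjusted p = 0.00477 in limma). The Hes, Hey and Id count is near the shares over all genes.

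The genes most like Dbp and Nfil3 were sought after centring each gene within KO and within WT, so that only differences between hearts of one genotype counted. Over the 8 arrays, Dbp was followed most closely by Hspa1l, Jdp2, Hemk1, Ceacam20 and S1pr5, with Pearson correlations of 0.98, 0.97, 0.97, 0.97 and 0.97 and Spearman correlations of 0.90 to 1. Among the output and core genes, Tef was nearest to Dbp at 0.91. Nfil3 was followed most closely by Lrig1, 2210016F16Rik, Ccl5, Fam114a2 and Ahnak2, at Pearson 0.98, 0.98, 0.97, 0.96 and 0.96 and Spearman 0.88 to 0.93. Without the hearts farthest from the median, WT replicates 2 and 4 for Dbp and KO replicates 2 and 3 for Nfil3, the Pearson correlations were 0.92 to 0.96 for Dbp and 0.88 to 0.97 for Nfil3. All points share their arrays, the genes were picked for their correlation, and the values are a description.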

How the data were processed

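The authors deposited 1 table of 27541 transcript clusters by 8 arrays, holding linear intensity values. RMA and Partek appear in the list of tools per the submitters' processing notes, without version or role. No genome build is named in the labels or file headers. Symbols came from the platform annotation: 21631 clusters had 1 symbol, 1317 had several and 4593 had none, and only those with 1 were used. The cluster with the highest mean stood for a gene, which concerned 951 genes with several clusters and none of the 9 described. Intensities were taken to log2, and genes with a mean below the 25th percentile over genes (log2 4.50) were left out. limma 3.58.1 in R 4.3.3 compared 4 KO with 4 WT arrays, with Benjamini-Hochberg adjustment over 14950 genes and a threshold of 0.05. Groups came from the genotype labels, and each array is a separate mouse. Differences between genes within a heart were tested by exact two-sided permutation. The fit was tested on simulated data. The number of arrays limits the precision. Alternatives covered scaling, the dim filter, an offset, the variance model, array weights, cluster averaging, the replicate block, the threshold and leaving out each heart.

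The 9 genes and all lists were chosen with earlier results of these data known. Named were the 9 genes, the core loop genes, Hdac3, and from each other list up to 4 genes past the threshold with the smallest p, or the 2 smallest where none passed. For Dbp and for Nfil3, the one of the 9 with the smallest p, the 5 most correlated genes were named. Promoter sequences were read from RefSeq tables of GRCm38.p6, and figures were drawn with matplotlib 3.10.9.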

Additional observations from a re-analysis of the deposited data

Results flagged for a closer look

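Rora in KO replicate 4 was 7.95 on the log2 scale, while the other KO hearts were 8.23 to 8.26. The gap to the nearest heart was 0.909 of the range of the 4 KO hearts, above Dixon's critical value for 4 samples at the 95% level. This was 1 of 38 groups of 4 hearts examined (the 9 output genes and 10 core loop genes in each genotype), where chance flags about 1 in 20.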

How the results depend on the processing

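Dbp and Nfil3 passed, in the same direction, under all 18 alternatives, and Hlf and Bhlhe41 under 17, missing only an adjusted p under 0.01 (-0.38 and -0.27). Bhlhe40 (-0.19) missed that threshold too, and leaving out a heart gave -0.22 to -0.16, with the call lost without WT replicate 1 or 4. At that threshold 961 genes were higher and 1249 lower in KO hearts, against 1612 and 2071 at 0.05, and the 9 output genes kept 1 higher and 1 lower. Csnk1e lost its call with array medians centred (0.16, adjusted p = 0.0879), with no dim filter (0.18, adjusted p = 0.0563), at 0.01 (0.18), and with the replicate block (0.18, adjusted p = 0.0669). Leaving out a heart gave 0.16 to 0.22. The count of output genes higher was therefore 1 in these 4 settings, and 1 to 3 with a heart left out. Csnk1d passed after quantile normalization (0.15, adjusted p = 0.0315) and with array weights (0.16, adjusted p = 0.0175), and ranged over 0.12 to 0.18 with a heart left out. Core loop genes higher numbered 2 after quantile normalization, with 16 added to each value, and with trended robust variances, 3 with array weights, 0 at 0.01, and 1 to 2 with a heart left out. With a heart left out, Cry2 ranged over -0.14 to 0.0081, turning positive without WT replicate 3, and Nr1d2 over -0.058 to 0.013, turning without WT replicate 4. Dbp minus Hlf ranged over -0.087 to 0.035, turning without WT replicate 2. The causes were not tested. Of 913 values of 51 named genes over the alternatives, 834 kept direction and side of the threshold. No pairing of the mice by replicate number was seen. Deviations of same-numbered KO and WT hearts correlated at -0.04 to 0.08, and those of differently numbered hearts at -0.23 to 0.23. The replicate block called 3382 genes against 3683 without it. With so few hearts these values cannot exclude pairing. Each gene rests on 1 cluster, and collection time could not be examined.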

Other observations

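The marker lists moved as follows. Among macrophage genes, the lysosomal glycoprotein gene Cd68 rose by 1.46, the lysozyme gene Lyz2 by 1.41, the signalling adaptor gene Tyrobp by 1.39 and the growth factor receptor gene Csf1r by 1.31, and the neutrophil markers S100a8 and Ly6g were under the dim filter. The matrix genes Postn, Lum and Col1a2 rose by 0.64, 0.38 and 0.23, and the endothelial receptor gene Flt1 by 0.20. Cd4, which macrophages can also express, rose by 0.42, while the lymphocyte markers Cd3d, Cd79a, Ms4a1 and Klrb1c were under the dim filter. Of the cardiomyocyte genes, the calcium release channel gene Ryr2 fell by 0.53, the transcription factor gene Nkx2-5 by 0.23, and the sarcomere genes Myl2 and Mybpc3 by 0.20 and 0.15 on the log2 scale. Several of these calls were lost in some of the 18 alternatives: Mybpc3 in 12, all 8 that leave out a heart among them, Col1a2 and Flt1 in 9 each, Nkx2-5 in 7 and Myl2 in 5. Their adjusted p reached 0.0996 for Mybpc3, 0.122 for Col1a2, 0.102 for Flt1, 0.0776 for Nkx2-5 and 0.0634 for Myl2.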
